A study of Mus musculus with 4 samples.

Results

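The bone marrow of TLR9-/- mice and of WT mice was profiled by single-cell RNA sequencing, and 8 transcripts of the 31053 genes in the count tables are described here. They were picked by symbol because each was near absent from all cells of 1 genotype. BC018473, Gm6594 and Gm35082 were on in TLR9-/- marrow, whereas Gm16867, Gm15915, Gm19951, Gm34084 and Gm37915 were on in WT marrow. Their counts in both genotypes were known when they were chosen, so the difference between genotypes is given as a description, without a test. Of the 8, 7 are annotated as noncoding. Gm16867 is annotated as protein-coding, which goes against a description of the whole set as noncoding transcripts.

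The cells came from the femurs and tibias of 2 TLR9-/- mice and 2 WT mice, with 1 library per mouse. TLR9-/- mice carry a disrupted allele of Toll-like receptor 9, the endosomal sensor of unmethylated CpG DNA, in all cells. The labels give C57BL/6 as the strain of both genotypes and the methods give C57BL6/J. The lines were bred in separate cages on normal chow and received no treatment, so that the disrupted allele, the line and the cage cannot be told apart, and neither age nor sex of these 4 mice was given in the sources used here. Cells were collected at the interface of a Ficoll gradient, in 2 experiments with 1 mouse of each genotype. Levels are unique molecular identifiers (UMIs), each of which marks 1 captured RNA molecule, and libraries are named by genotype and replicate number.

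Most long noncoding RNAs are spliced and polyadenylated like messenger RNAs, are present at low levels and are restricted to few cell types. An antisense transcript runs against another gene on the opposite strand, and a long intergenic RNA (lincRNA) stands clear of coding genes. A processed pseudogene is a copy of a messenger RNA that was written back into the genome, so it lacks introns and resembles its parent gene. Bone marrow makes granulocytes, monocytes, red cells and B cells side by side, which allows the cell types that hold such a transcript to be separated by their marker genes.

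After filtering, 39167 of 40545 cells remained, with 8895 to 10781 cells and 31210188 to 63958243 UMIs per library. Both TLR9-/- libraries were deeper, with a median of 2545 and 3618 UMIs per cell against 1759 and 2287 in the WT libraries. Pairs of libraries shared 112 to 185 cell barcodes, at most 1.75% of the barcodes of a library. Tlr9 itself had 41 and 48 UMIs in TLR9-/- replicates 1 and 2, against 120 and 97 in WT replicates 1 and 2. Its log2 difference between TLR9-/- and WT was -1.98 (standard error 0.35, adjusted p = 0.117 by edgeR's quasi-likelihood test with Benjamini-Hochberg adjustment over 14194 genes), which did not pass the threshold of 0.05, although both TLR9-/- libraries were below both WT libraries. Of 10 alternatives, 3 passed (adjusted p = 0.000864 to 0.267). Of 28 clusters of cells, 27 took the name of the class whose markers they expressed. 13 classes with at least 20 cells in every library were used to place the transcripts. The 8 transcripts were left out of the clustering.

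The 8 transcripts lie on 8 different chromosomes, and none lies on chromosome 9, which holds Tlr9. Gm6594 is a processed pseudogene of Hmgn2, the gene of a nucleosome-binding protein that loosens chromatin. Its counts depend on few bases that set it apart from its parent. Its annotated sequence aligned to the coding part of Hmgn2 with 263 identical bases, 8 mismatches and 15 bases that Hmgn2 lacks, 23 positions in all. A read with none of these positions cannot be told apart from Hmgn2, and the same numbers of identical and differing bases were found against the related genes Gm7125 and Gm10282. The UMIs of Gm6594 are therefore uncertain and cover molecules whose reads were unique to it.

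Gm16867 (chr14:69363504-69503362, minus strand, GRCm38) shares the start of Slc25a37, the gene of mitoferrin-1, which carries iron into the mitochondria of red cell precursors. The coding exon in which the reading frame of Gm16867 begins is 210 bases long (chr14:69502982-69503191, minus strand), is present in 6 of its 6 coding transcripts, and is identical in all 210 bases to the exon of Slc25a37 at chr14:69284732-69284941. The start codon is in capitals.
Gm16867: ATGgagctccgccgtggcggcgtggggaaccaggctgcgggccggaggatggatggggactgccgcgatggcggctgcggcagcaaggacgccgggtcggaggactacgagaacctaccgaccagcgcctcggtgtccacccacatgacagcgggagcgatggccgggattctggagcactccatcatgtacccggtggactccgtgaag
The identity covered the first 382 bases of the transcript. As the reads come from the 5′ end, counts of Gm16867 and Slc25a37 are likewise uncertain. Gm16867 also shares 2946 bases with Gm27177, which had 1 UMI in the whole data set.

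The other 6 transcripts had no such parent. Part of Gm35082 (chr7:100675088-100677760, plus strand, lincRNA) is a repeat, with a match of 90% or more over at least 100 bases in 783 genes. BC018473 (chr11:116752167-116759373, plus strand) is annotated as an antisense RNA, although no other annotated gene was found to overlap its gene body. Gm15915 (chr10:93674218-93683322, minus strand) runs against Ntn4, the gene of netrin 4, within its gene body but without overlap of exons. Gm37915 (chr1:40771385-40785343, plus strand) runs against Mfsd9, the gene of a membrane transporter, and shares 2427 bases of exon with it. Gm19951 (chr12:99643093-99647221, plus strand) and Gm34084 (chr13:44472426-44504548, minus strand) are lincRNAs.

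RefSeq promoter windows, from 250 bases before to 50 bases after a transcript start (GRCm38.p6), were found for 5 of the 8 transcripts. They were searched on both strands for 4 motifs of blood cell factors. AGATAA, a motif of GATA factors, stands in 11.2% of all 32851 windows. GAGGAA, a motif of PU.1, stands in 28.3% of them. TTGCNNAA, a motif of C/EBP factors, stands in 10.8%. CAGGTG, an E-box bound by basic helix-loop-helix factors, stands in 20.2%. Gm15915, Gm19951 and Gm34084 held 1 or more of them and are shown, with the matches in capitals, as the windows in which a motif was found.
Gm15915: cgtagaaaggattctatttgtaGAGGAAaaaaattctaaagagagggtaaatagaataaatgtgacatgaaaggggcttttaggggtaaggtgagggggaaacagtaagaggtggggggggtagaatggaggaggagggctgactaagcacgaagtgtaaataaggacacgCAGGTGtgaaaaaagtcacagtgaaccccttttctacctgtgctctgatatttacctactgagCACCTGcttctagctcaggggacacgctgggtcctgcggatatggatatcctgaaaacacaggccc
Gm19951: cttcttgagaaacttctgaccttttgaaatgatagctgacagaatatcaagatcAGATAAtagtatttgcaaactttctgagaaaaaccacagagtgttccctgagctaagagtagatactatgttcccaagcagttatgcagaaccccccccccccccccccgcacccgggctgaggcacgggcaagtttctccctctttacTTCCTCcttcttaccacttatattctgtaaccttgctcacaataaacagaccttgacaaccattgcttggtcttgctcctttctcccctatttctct
Gm34084: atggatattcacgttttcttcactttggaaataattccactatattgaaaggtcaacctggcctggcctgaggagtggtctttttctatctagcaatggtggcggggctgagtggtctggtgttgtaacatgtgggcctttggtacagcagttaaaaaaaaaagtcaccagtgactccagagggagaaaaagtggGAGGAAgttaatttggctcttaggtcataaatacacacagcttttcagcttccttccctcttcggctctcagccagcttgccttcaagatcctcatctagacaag
The windows lie at chr10:93683273-93683572 (minus strand), chr12:99642846-99643145 (plus strand) and chr13:44480278-44480577 (minus strand). Gm15915 held GAGGAA 228 bases before the start and the E-box 79 and 16 bases before it. Gm19951 held AGATAA 196 bases and the reverse of GAGGAA 47 bases before the start, and a run of 18 C. Gm34084 held GAGGAA 55 bases before a RefSeq start that lies inside the annotated gene body. The windows of Gm16867 and Gm35082 held none of the 4 motifs, and a match is a description of letters only.

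Across whole libraries, the transcripts were on in both mice of 1 genotype and close to 0 in both mice of the other. In TLR9-/- replicates 1 and 2, BC018473 had 7673 and 14319 UMIs, and in WT replicates 1 and 2 it had 2 and 0. Gm6594 had 3416 and 6572 UMIs in TLR9-/- mice, and neither WT library had any. Gm35082 had 1278 and 2123 UMIs against 1 and 1. The 3 transcripts were higher in the deeper TLR9-/- library also relative to the library total, by 1.3 to 1.51 times. In the reverse direction, WT replicates 1 and 2 had 973 and 991 UMIs of Gm16867, against 1 and 0 in TLR9-/- mice. Gm15915 had 199 and 439 UMIs in WT mice against 3 and 4, and Gm19951 had 138 and 183 against 1 and 1. Gm34084 rested on 517 and 1215 WT UMIs against 4 and 7. That libraries of the 2 genotypes did not overlap for any of the 8 follows from how they were chosen, and nothing is read from it. Gm37915 had 104 and 128 WT UMIs against 5 and 12, the least complete absence of the 8.

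On the CPM scale (UMIs of a gene per 1000000 UMIs of the library, after TMM scaling of the library totals), BC018473 stood at 188 ± 50.3 CPM, Gm6594 at 85.3 ± 24.6 CPM and Gm35082 at 29.3 ± 5.48 CPM in TLR9-/- mice (SD, n = 2 libraries). In WT mice, Gm16867 stood at 27.6 ± 5.05 CPM, Gm34084 at 23 ± 9.12 CPM and Gm15915 at 8.51 ± 3.02 CPM (SD, n = 2 libraries). Gm19951 at 4.43 ± 0.0113 CPM and Gm37915 at 3.22 ± 0.161 CPM differed least between the WT libraries. Ratios between genotypes were taken of the pooled UMIs, each over the pooled library totals. A count under 3 UMIs in the genotype without the transcript was set to 3, which lowers the ratio. The intervals rest on the counts as found. With 3 in place of its 2 WT UMIs, the ratio was 4661 for BC018473 (95% exact interval 1935 to 57741, counting error only). Also with 3 UMIs in place of 2, 1 and 2, it was 721 for Gm35082 (299 to 8932), 1030 for Gm16867 (554 to 122054) and 168 for Gm19951 (69.3 to 2093). It was 248 for Gm34084 (138 to 497), from the counts as found. Gm6594 had 0 UMIs in WT mice, and the lower end of its 95% exact interval was a 1721-fold higher level in TLR9-/- mice. With 3 UMIs over both WT libraries in place of the 0, the ratio was 2117. The ratio of Gm15915 was 143 (69.2 to 358) and that of Gm37915 was 21.5 (13.1 to 37.5), the smallest of the set. With 2 libraries per genotype, no two-sided exact permutation test could give a p below 0.33.

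**Figure D1:**
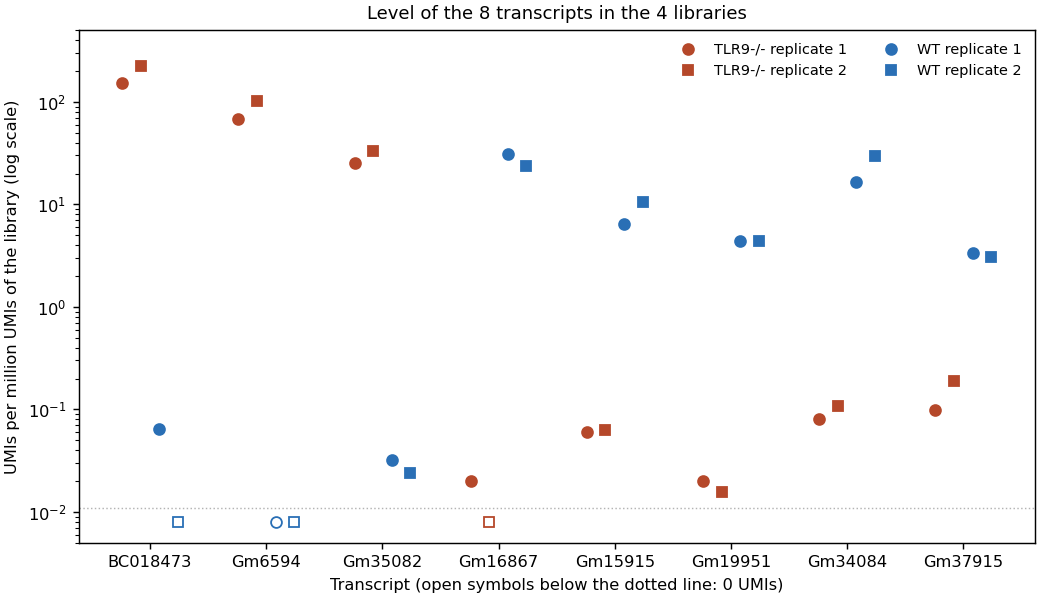
UMIs per 1000000 UMIs of each library (log scale) for the 8 transcripts, with 1 symbol per mouse. The 3 transcripts on the left were on in both TLR9-/- libraries and the 5 on the right in both WT libraries, and Gm37915 had the smallest gap, a ratio of 21.5.

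Such genes were rare. Among 15115 genes with at least 20 UMIs, 49 (0.324%) had at least 10 UMIs in each TLR9-/- library and a level at least 10-fold lower in WT mice, and 40 (0.265%) met the reverse. The 8 transcripts are 3 of the 49 and 5 of the 40, and 34 of the 89 were immunoglobulin or T cell receptor segments. At the edge of the threshold, Spocd1 (24 and 41 against 2 and 2 UMIs, ratio 10.3) was just inside and Wisp1 (16 and 28 against 1 and 2 UMIs, ratio 9.33) just outside for absence in WT mice. For absence in TLR9-/- mice, Gm33370 (7 and 5 against 58 and 20 UMIs, ratio 10.2) was just inside and Gm8251 (2 and 2 against 12 and 13 UMIs, ratio 9.83) just outside. In the edgeR fit over all cells, 38 of 14194 genes passed an adjusted p of 0.05 (0.268%), 8 of the 8 transcripts among them. As the transcripts were chosen on this contrast, nothing is read from that count.

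The UMIs in the genotype without a transcript were few, and part of them lay in the classes that held it in the other genotype. Whether they were stray molecules or a low level of the transcript was not tested. There were 42 of them for all 8 transcripts together, in 40 cells, of which 38 had 1 UMI. Of these cells, 1 had a barcode that also occurred in a library of the other genotype. Gm37915 gave 17 of the 42 UMIs, and 12 of its 16 cells were erythroid, the class that held it in WT mice. These 16 cells had a median of 14178 UMIs, against 3009 over all TLR9-/- cells. Of 11 TLR9-/- cells with Gm34084, 4 were granulocyte precursors, 3 were monocytes and 1 was a neutrophil. Of 7 TLR9-/- cells with Gm15915, 3 were erythroid and 3 were T cells. The 2 WT UMIs of BC018473 came from 1 granulocyte precursor with 8004 UMIs.

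BC018473 was detected in 21.8% and 30.6% of TLR9-/- cells and in 0.00946% and 0% of WT cells. Its level was highest in granulocyte precursors, the Mpo, Elane and Prtn3 cells that make neutrophil granule proteases, at 341 and 488 CPM, which within a class is UMIs per 1000000 UMIs of the class in that library, without TMM scaling (415 ± 104, SD, n = 2 TLR9-/- libraries). NK cells followed with 294 and 312, neutrophils with 209 and 202, T cells with 183 and 217 and basophils with 147 and 197 CPM. B cell precursors were lowest, at 17.4 and 18.9 CPM. The order of granulocyte precursors above NK cells and of NK cells above neutrophils was the same in both mice, whereas neutrophils overlapped with T cells and T cells with basophils. The neutrophil lineage (granulocyte precursors and neutrophils) held 72.8% and 83.2% of its UMIs, and 42.1% of all UMIs of these libraries. Genes with the most similar pattern over 26 class-by-library values of TLR9-/- mice were Ccdc88b (r = 0.791), Hcst (r = 0.788) and B4galnt1 (r = 0.761). Hcst encodes DAP10, an adaptor of activating receptors on NK and T cells. These correlations are descriptive, as the classes of a library share its depth.

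**Figure D2:**
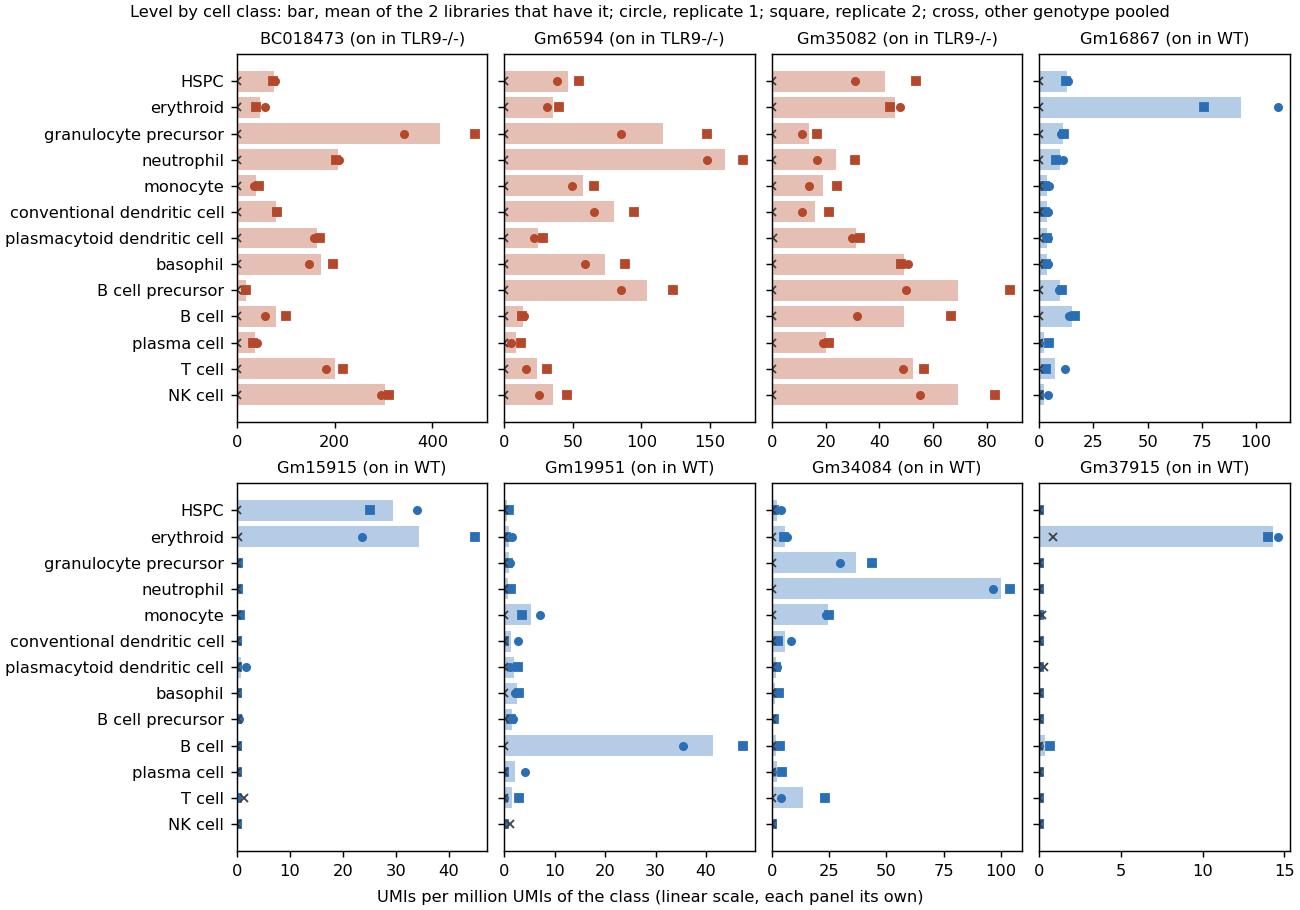
UMIs per 1000000 UMIs of each of 13 classes (linear scale, set for each panel), with the mean of the 2 libraries of the genotype that had the transcript as a bar, both libraries as symbols and the other genotype pooled as a cross. BC018473 peaked in granulocyte precursors at 341 and 488, Gm34084 in neutrophils at 96.3 and 104, Gm19951 in B cells at 35.5 and 47.3, and Gm16867 and Gm37915 in erythroid cells, while Gm35082 was spread over all classes.

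Within granulocyte precursors, BC018473 was uneven from cell to cell. Of 924 and 895 TLR9-/- cells, 47.8% and 37.7% had 0 UMIs. The median depth was 13445 and 20094 UMIs in cells without BC018473 and 13978.5 and 24049.5 UMIs in cells with it. The part of depth in these zeros was not tested. At the other end, 7.47% and 17% of the cells had 20 to 49 UMIs of BC018473, and the highest cell had 64 and 118. The 10% of the cells with most BC018473 held 51% and 49.8% of its UMIs in this class. For Gm6594 in the same cells, 39.7% and 17.3% had 0 UMIs, the highest cell had 10 and 26 UMIs, and the top 10% held 35.9% and 36%. Both transcripts were found together in 333 and 486 cells. Gm6594 was present in 69.1% and 87.1% of cells with BC018473 and in 50.7% and 75.4% of cells without it, a difference that depth was not separated from. Of 319 and 435 WT granulocyte precursors, 1 had BC018473 and 0 had Gm6594.

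**Figure D3:**
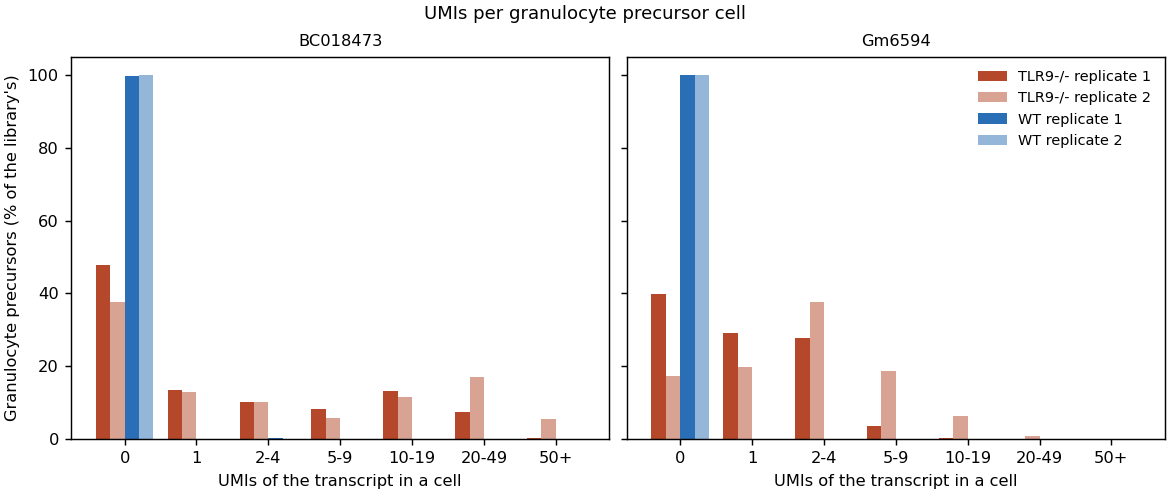
Share of granulocyte precursors of each library (%) by the number of UMIs of BC018473 or Gm6594 in the cell. BC018473 had 0 UMIs in 47.8% and 37.7% of the TLR9-/- cells and a tail of cells with 20 or more UMIs, while the WT cells were at 0 for both transcripts except 1 cell with BC018473.

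Gm6594 was highest in neutrophils, at 148 and 174 CPM (161 ± 18.2, SD, n = 2 TLR9-/- libraries). Both values were above both values of the next class, which held for no other of the 10 highest classes. Granulocyte precursors had 85 and 148, B cell precursors 85 and 123 and conventional dendritic cells 65.2 and 94.9 CPM, and the ranges of neighbouring classes overlapped, although within each mouse B cell precursors were above conventional dendritic cells. B cells and plasma cells were lowest, with 14.6 and 12.7 and with 4.72 and 12.1 CPM. The neutrophil lineage held 55.9% and 70% of its UMIs. Its parent Hmgn2 was the gene with the most similar pattern over the 26 values (r = 0.933), before Gapdh (r = 0.868) and Tkt (r = 0.846), both enzymes of sugar metabolism. Hmgn2 had 2663 and 2072 CPM in neutrophils and 283 and 183 in B cells of the same libraries.

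Unlike its pseudogene, Hmgn2 was present in all 4 libraries, with 61979 and 77994 UMIs in TLR9-/- mice and 39275 and 54078 in WT mice. Its log2 difference was -0.07 (standard error 0.14, adjusted p = 0.833 by edgeR's quasi-likelihood test with Benjamini-Hochberg adjustment). Gm7125, a related pseudogene, had 303 and 152 UMIs in TLR9-/- mice and 0 in both WT libraries, so at whole-library level it was on in the same mice as Gm6594. Its test over all cells did not pass (adjusted p = 0.0878, 9.22e-08 to 0.0895 over 10 alternatives). In B lineage cells it passed with 43 and 15 against 0 and 0 UMIs (adjusted p = 0.0339), where 0.324% of 11105 genes were called, and in neutrophil lineage cells with 166 and 108 against 0 and 0 UMIs (adjusted p = 0.0316), where 0.725% of 11720 genes were called. Each of these calls was lost in 2 of 9 alternatives. Gm10282 was present in both genotypes, with 4768 and 4487 UMIs in TLR9-/- mice and 4562 and 5624 in WT mice (log2 difference -0.78, standard error 0.19, adjusted p = 0.165). In neutrophil lineage cells its log2 difference was -1.16 (standard error 0.19, adjusted p = 0.0495, up to 0.265 over 9 alternatives). How reads were divided among these near-identical genes was not tested.

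Gm35082 was the least restricted of the 8. It was detected in 10.3% and 18.6% of TLR9-/- cells, and its level ran from 11.1 and 16.7 CPM in granulocyte precursors to 49.9 and 88.6 in B cell precursors and 55.1 and 83.1 in NK cells. T cells had 48.7 and 56.4, basophils 50.5 and 48.1 and erythroid cells 47.6 and 44 CPM. The ranges of all neighbouring classes in the order of levels overlapped. The B lineage held 26.9% and 21.3% of its UMIs, the largest share in TLR9-/- replicate 1 and in the mean of both. In TLR9-/- replicate 2 the neutrophil lineage held more, with 346 UMIs in granulocyte precursors and 274 in neutrophils against 291 in B cell precursors and 162 in B cells. The neutrophil lineage also led in the mean at a clustering resolution of 2 and among cells with at least 1000 UMIs. Of all UMIs of the TLR9-/- libraries, the neutrophil lineage held 42.1% and the B lineage 11.5%, so a larger share was not a higher level. The highest levels of Gm35082 were in clusters of shallow cells. The erythroid cluster with Bpgm and Alas2 had 263 and 611 CPM, the B cell precursor cluster with Rag1 had 105 and 194, and the neutrophil cluster with Il1b and Csf3r had 82.2 and 113. The median depth of these clusters was 1442.5, 968 and 892 UMIs per cell, and its part in the levels was not tested. The most similar genes were Gimap9 (r = 0.804), Tti2 (r = 0.782) and Dnaaf5 (r = 0.778).

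Gm16867 was detected in 6.98% and 7.17% of WT cells and was highest in erythroid cells, at 110 and 76.1 CPM (92.9 ± 23.8, SD, n = 2 WT libraries). B cells came next with 13.7 and 16.7 and HSPCs (hematopoietic stem and progenitor cells) with 13.1 and 12.5 CPM. Erythroid cells held 78.6% and 69.2% of its UMIs and 22% of all UMIs of the WT libraries. Its level differed among the erythroid clusters, from 14.1 and 12.6 CPM in the cluster marked by Car1 to 196 and 450 in the cluster with Bpgm and Alas2. The cluster with most haemoglobin RNA (Hba-a1, Hbb-bs) was between these, at 70.5 and 39.2 CPM.

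Slc25a37, whose start is identical, was the gene with the most similar pattern (r = 0.885), followed by Stradb (r = 0.884) and Dhrs11 (r = 0.851). It had 4136 and 3192 UMIs in TLR9-/- mice and 6443 and 3662 in WT mice, with a log2 difference of -1.16 (standard error 0.45, adjusted p = 0.286 by edgeR's quasi-likelihood test with Benjamini-Hochberg adjustment), and so was present in the mice without Gm16867. In erythroid cells it had 559 and 217 CPM in TLR9-/- mice and 837 and 312 in WT mice, and the genotypes overlapped.

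Gm15915 was held by erythroid cells and HSPCs. It had 23.7 and 45 CPM in erythroid cells and 34 and 25.1 in HSPCs, in overlapping ranges, and at most 1.64 in any library of the other 11 classes. The erythroid cluster marked by Car1 held 69.8% and 84.7% of its UMIs, in 59 of 155 and 122 of 238 cells. Within that cluster it had 70 and 88.5 CPM. The genes closest in pattern were Adamtsl5 (r = 0.974), Phlda2 (r = 0.967) and Tmem246 (r = 0.951), each with few UMIs. Ntn4, the gene that Gm15915 runs against, had 15 and 18 UMIs in TLR9-/- mice against 58 and 62 in WT mice (0.29 ± 0.0121 and 1.68 ± 0.251 CPM, SD, n = 2 libraries). Its log2 difference was -2.52 (standard error 0.34), but the adjusted p of 0.0845 did not pass, and 3 of 10 alternatives did. Most of its UMIs were in erythroid cells, where it had 1.62 and 1.49 CPM in TLR9-/- mice and 8.18 and 6.88 in WT mice. Over all cells, a change in the number of erythroid cells and a change in RNA per cell cannot be told apart.

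Gm37915 was also erythroid, and it held most closely to 1 class. It had 14.6 and 14 CPM in erythroid cells of WT mice (14.3 ± 0.465, SD, n = 2 libraries), 0 and 0.681 in B cells and 0 in the other 11 classes. Erythroid cells held 98.1% and 98.4% of its UMIs. In the erythroid cluster marked by Car1 it had 15.6 and 8.56 CPM. TLR9-/- erythroid cells had 13 UMIs of it, 0.833 CPM. Its pattern was closest to 4930572G02Rik (r = 0.997), 6030468B19Rik (r = 0.993) and Sh3tc2 (r = 0.993). These values of r rest on the erythroid cells, as Gm37915 was at or near 0 in every other class, and 4930572G02Rik had only 54 UMIs. Mfsd9 on the opposite strand had 36 and 57 UMIs in TLR9-/- mice and 17 and 27 in WT mice, with a log2 difference of 0.42 (standard error 0.35, adjusted p = 0.572).

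Gm34084 was a transcript of neutrophils, at 96.3 and 104 CPM (99.9 ± 5.12, SD, n = 2 WT libraries), above granulocyte precursors with 29.7 and 43.5 and monocytes with 23.8 and 25 in both mice. The neutrophil lineage held 71.2% and 86.1% of its UMIs against 28.1% of all UMIs of the WT libraries. Among the neutrophil clusters given here it was highest in the one with Il1b and Csf3r, at 602 and 418 CPM. The Ly6g and Mmp9 cluster had 135 and 127 CPM, and a cluster led by Camp and Ngp had 68.8 and 67. Another neutrophil cluster led by Camp and Ngp is not given. The Il1b cluster was also the shallowest, with a median of 892 UMIs per cell, and the part of depth was not tested. In a monocyte cluster with Clec4a1 and Ccr2 it had 71.2 and 74.5 CPM. The T cell values of 3.94 and 23 CPM rested on 1 cell in each library. It had a UMI in 23.5% and 31% of neutrophils and in 0% and 0.32% of B cells, with a median of 2164 and 2511.5 UMIs per neutrophil and 1028 and 1359 per B cell. After thinning each cell to 1000 UMIs, which left 673 of 851 and 1376 of 1670 neutrophils, these shares were 9.26% and 12.6% of neutrophils and 0% and 0.31% of B cells. Cells under 1000 UMIs were left out of the thinned shares, and the median of the Il1b cluster over all libraries lay below that limit. The nearest patterns were those of Pilrb2 (r = 0.93), Clec5a (r = 0.93), which encodes a myeloid C-type lectin receptor, and Dgat2 (r = 0.89), a triglyceride synthase.

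Gm19951 was a transcript of B cells, with 35.5 and 47.3 CPM (41.4 ± 8.37, SD, n = 2 WT libraries), above monocytes with 7.11 and 3.41. B cell precursors had 1.75 and 1.28 CPM. In the B cell cluster with Fcer2a and Ighd it reached 67.9 and 90 CPM, and in that led by Ms4a1 and Tnfrsf13c it had 12 and 6.61. The B lineage held 66.7% and 81.4% of its UMIs against 27.3% of all UMIs. It was found in 1.19% and 1.85% of all WT cells, with no more than 3 UMIs in a cell. The patterns most like it were those of Cd40 (r = 0.835), Cacna1i (r = 0.829) and Ms4a1 (r = 0.825), of which Cd40 and Ms4a1 encode B cell surface proteins.

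Genes around the 8 transcripts were not used to choose them, so their differences between genotypes could be tested. Within 500 kb lay 138 other genes, and 71 of them were tested over all cells. Of these, 1 passed (1.41%, against 0.268% of all genes). An unadjusted p under 0.05 by edgeR's test was found for 23 of the 71, against 2433 of all 14194 genes. The median log2 difference was 0.01 against -0.02 for all genes. In B lineage cells 1 of 49 passed, in monocyte lineage cells 2 of 53, where 0.564% of 10458 genes were called, and in neutrophil lineage cells 2 of 59. All of these calls were neighbours of BC018473.

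St6galnac2, a sialyltransferase that adds sialic acid to O-linked glycans, lies 57.3 kb from BC018473 and had 493 and 518 UMIs in TLR9-/- mice and 1 and 4 in WT mice. It stood at 8.95 ± 1.21 CPM in TLR9-/- mice and 0.0645 ± 0.0459 CPM in the WT libraries (SD, n = 2 libraries each). The log2 difference was 6.98 (standard error 0.42, adjusted p = 0.0082 by edgeR's quasi-likelihood test with Benjamini-Hochberg adjustment), and 10 of 10 alternatives passed. It also passed in B lineage cells (44 and 46 against 0 and 0 UMIs, adjusted p = 0.00469), monocyte lineage cells (82 and 74 against 0 and 1 UMIs, adjusted p = 0.00594) and neutrophil lineage cells (62 and 117 against 0 and 0 UMIs, adjusted p = 0.0113, up to 0.117 over 9 alternatives). Another gene identifier with this symbol had 10 and 16 UMIs in TLR9-/- mice and 0 in WT mice. St6galnac2 differed from BC018473 in the class with the highest level. It was highest in NK cells at 132 and 116 and in T cells at 96.6 and 94 CPM. These classes also held BC018473, at 294 and 312 and at 183 and 217 CPM. In granulocyte precursors, the class with most BC018473, St6galnac2 was low at 3.82 and 4.53 CPM. Of the 4 UMIs of St6galnac2 in WT replicate 2, 3 were in stromal or endothelial cells, at 28 CPM. This small class had 38.1 and 17.9 CPM in TLR9-/- mice, from 3 and 2 UMIs, and 0 in WT replicate 1. Its near absence in WT mice was thus not seen in that class of WT replicate 2.

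St6galnac1, a related sialyltransferase 5.65 kb from BC018473, had 40 and 57 UMIs in TLR9-/- mice and 0 in WT mice. It did not pass over all cells (adjusted p = 0.0837, 3 of 10 alternatives passed) but passed in neutrophil lineage cells, with 25 and 42 against 0 and 0 UMIs (adjusted p = 0.0483, up to 0.371 over 9 alternatives). It had 57.5% and 59.6% of its UMIs in granulocyte precursors, against 10.1% and 18.1% for St6galnac2. Relative to the UMIs of each class, St6galnac1 had 1.76 and 1.64 CPM there. It had 7.61 and 4.7 CPM in T cells, from 10 and 5 UMIs, and T cells were also high in St6galnac2. Mxra7, 43.7 kb away, had 104 and 129 UMIs against 4 and 9 (log2 difference 3.51, standard error 0.39, adjusted p = 0.0634, 3 of 10 alternatives passed). Mettl23, 83.9 kb away, was lower in TLR9-/- monocyte lineage cells, where the class held more UMIs, with 414 and 424 against 370 and 292 UMIs (45.5 ± 0.305 and 91.4 ± 12.8 CPM, SD, n = 2 libraries, log2 difference -1.01, standard error 0.17, adjusted p = 0.0379). This call passed in 6 of 9 alternatives, with an adjusted p of up to 0.154. The log2 difference of Mettl23 was -1.12 over all cells (adjusted p = 0.077), -0.97 in B lineage cells (adjusted p = 0.116) and -0.94 in neutrophil lineage cells (adjusted p = 0.0569), which did not pass. BC018473 was thus 1 of 5 genes within this stretch of chromosome 11 that were higher in TLR9-/- mice by at least 10-fold at whole-library level, counting both identifiers of St6galnac2.

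**Figure D4:**
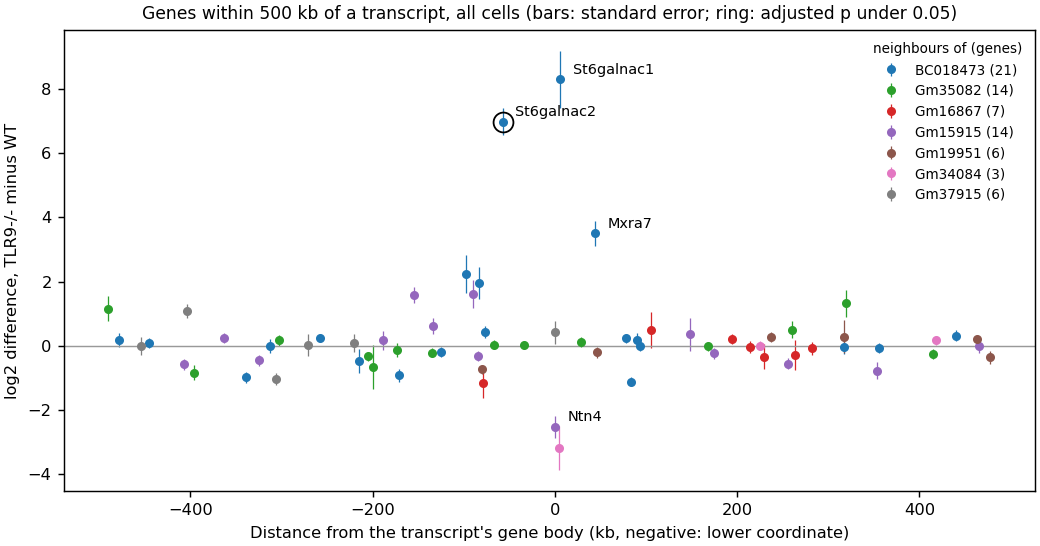
Log2 difference between TLR9-/- and WT over all cells (with standard errors) for 71 genes within 500 kb of a transcript, by distance from its gene body in kb. St6galnac2 (ringed) was the only gene that passed an adjusted p of 0.05, and St6galnac1 and Mxra7 on the same side of 0 did not. The median log2 difference of the 71 genes was 0.01.

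The remaining transcripts had no neighbour that passed. No gene of the count tables lay within 500 kb of Gm6594. Pkdcc, 676 kb away, had a log2 difference of -0.19 (standard error 0.32, adjusted p = 0.796 by edgeR's test). Slc8a1, 801 kb away on the other side, had one of 1.18 (standard error 0.43, adjusted p = 0.271). Fam168a and Rab6a on the sides of Gm35082 differed by 0.11 and 0.02 on the log2 scale (adjusted p = 0.768 and 0.946). Gm47792, 5.01 kb from Gm34084, had 3 and 1 UMIs in TLR9-/- mice and 10 and 15 in WT mice (log2 difference -3.18, standard error 0.68, adjusted p = 0.149). Cd83, 669 kb away on the other side, had a log2 difference of -0.78 (standard error 0.29, adjusted p = 0.272). Loxl2 near Gm16867, Usp44 and Snrpf near Gm15915 and Il18rap near Gm37915 did not pass either (adjusted p = 0.68, 0.756, 0.373 and 0.902 by edgeR's test). Foxn3, 79.5 kb from Gm19951, had 45.5 ± 3.7 CPM in TLR9-/- mice and 75.3 ± 3.14 CPM in WT mice (SD, n = 2 libraries, adjusted p = 0.14), and Efcab11 on the other side differed by -0.20 (adjusted p = 0.593). A p that misses the threshold does not show that these genes were equal.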

How the data were processed

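The authors aligned the reads with Cell Ranger (STAR, mm10) and deposited, for each mouse, raw UMI counts of 31053 genes in every called cell, and later steps of the study used Seurat 2.3.4. These counts were analysed here. Cells with fewer than 200 or more than 10000 genes or with more than 10% mitochondrial UMIs were left out (the methods print 0.10%, taken here as a fraction). The 8 transcripts, the gene lists and the tests were chosen with earlier results of these data known. Cells were clustered with scanpy 1.11.5 (2000 variable genes without the 8 transcripts, 30 principal components, Leiden resolution 1) and named from marker genes, each name meaning cells resembling that class, and 304 cells stayed unnamed. Doublets were kept, and an alternative left out 7.12% to 8.63% of the cells of a library by doublet score. UMIs were summed per library and tested with edgeR 4.0.16 (filterByExpr, TMM, quasi-likelihood test, two-sided, Benjamini-Hochberg adjustment over all genes tested, threshold 0.05), since cells of 1 mouse are no replicates. DESeq2 1.42.0 was an alternative. Single libraries are 1 mouse each, and the 2 mice of a genotype came from different experiments. The p-values therefore rest on a spread between 2 libraries per genotype in which mouse, experiment and library cannot be told apart.

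Named genes were the 8 transcripts, the nearest tested gene on either side, neighbours within 500 kb that passed, overlapping genes, near-identical copies (blastn 2.17.0, 90% or more over 100 bases or more), Tlr9, and the 3 genes with the highest Pearson r over class-by-library log2(CPM + 1) among genes with at least 50 UMIs. St6galnac1, Mxra7 and the other identifier of St6galnac2 are also given in fits where they did not pass, and this was chosen after their values were seen. Positions are from GENCODE M21 (GRCm38), promoter windows from RefSeq (GRCm38.p6). On simulated counts for all cells (14194 genes), the fit found 23 of 100 genes changed 2-fold and 83 of 100 changed 4-fold. Intervals and limits cover counting error only. Other splits into experiments were not analysed, because the labels do not state that replicate numbers mark them. The base sequence of Gm6594 and the values of 1 erythroid cluster are not reported here.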

Additional observations from a re-analysis of the deposited data

Results flagged for a closer look

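Barcodes that the filters left out, which enter no comparison above, also held more than 3 UMIs of 4 of the 8 transcripts in the genotype that had them and 0 UMIs in the other genotype. In TLR9-/- mice these barcodes had 23 UMIs of BC018473 (6 and 17 per library) and 92 UMIs of Gm35082 (18 and 74), among 566036 UMIs. In WT mice they had 92 UMIs of Gm16867 (68 and 24) and 8 UMIs of Gm34084 (3 and 5), among 905417 UMIs. They held 1 UMI each of Gm6594, Gm19951 and Gm37915 and 0 of Gm15915.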

How the results depend on the processing

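The count of genes that passed over all cells (38) was 785 with DESeq2, 605 without the filter on low counts and 58 to 88 with 1 library left out. In B lineage cells 36 became 60 with DESeq2, 234 without the filter and 20 to 408 with 1 library left out. In monocyte lineage cells 59 became 25 without the filter and 59 to 340 with 1 library left out. In neutrophil lineage cells 85 became 181 with DESeq2, 699 without the filter and 15 to 183 with 1 library left out. Among neighbours within 500 kb, 1 gene over all cells became 12 with DESeq2 and 11 without the filter, and stayed at 1 within 100 kb and within 1 Mb. In B lineage cells 1 became 2 with either, and 1 to 3 with 1 library left out. In monocyte lineage cells 2 became 1 without the filter and 1 to 6 with 1 library left out. In neutrophil lineage cells 2 became 4 with DESeq2, 6 without the filter and 0 to 3 with 1 library left out, the 0 without WT replicate 2 and 1 without WT replicate 1. A lone library was assumed to vary like those of the other genotype. The cause of these shifts was not tested.

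With the replicate number as a block, 1165, 101, 168 and 1942 genes passed in all, B lineage, monocyte lineage and neutrophil lineage cells, and 14, 2, 2 and 14 neighbours. Deviations of same-numbered libraries correlated at 0.323 over all cells, but 2 pairs cannot show that the numbers mark experiments.

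Genes near absent in WT mice (49) were 74 at 5-fold and 31 at 20-fold, and those near absent in TLR9-/- mice (40) were 77 and 25. The level of Gm19951 (4.43 CPM) was 4.38 over all barcodes and 4.49 without doublets. The erythroid share of Gm37915 (98.3%) was 94.3% by marker score and 98% without doublets. The other levels and shares moved by less than 1 SD between replicates under these alternatives. With 1 of 2 libraries left out, the mean always moves by less than their SD, so nothing is read from those alternatives. The depth of 31210188 UMIs in WT replicate 1 set the limit for absent transcripts, at 0.0961 CPM for a count of 0.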

Other observations

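Of the 81 other genes near absent in 1 genotype, 11 (13.6%) lay within 5 Mb of 1 of the 8 transcripts, against 621 (4.12%) of 15085 genes considered. The window was chosen after the values were seen, and the shares are a description without a test. Near BC018473 these were St6galnac1, Mxra7 and both identifiers of St6galnac2, all near absent in WT mice. Near Gm35082 they were 6 genes 3.57 to 3.79 Mb away, Trim34a, Trim5, Trim12a, Gm15133, Trim34b and Trim30d, members of or neighbours in a family of antiviral TRIM proteins, of which 5 were near absent in TLR9-/- mice and 1 in WT mice. Near Gm37915 it was Fhl2, 2.34 Mb away and near absent in WT mice. The other 5 transcripts had 0 such genes within 5 Mb. Gm47792, 5.01 kb from Gm34084, was just outside the 10-fold limit for absence in TLR9-/- mice, at a ratio of 9.83.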
